A study of Homo sapiens with 30 samples.

Results

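The comparison described here set human small airway epithelial cells exposed for 24 h to titanium dioxide (TiO2) nanobelts at 10 µg/ml against cells kept for 24 h without particles, over all genes of the array. It compares 6 of the 30 arrays of the series, 3 of exposed cells and 3 of control cells. Its arrays were found by their labels alone and no measured value is part of that rule, although results of these data were known when the comparison was chosen. The cells are primary cells bought from Lonza. The particles were added to the cultures in medium, the adherent cells were washed and their RNA was hybridised to Affymetrix arrays, 1 array per replicate. For reference, 3 arrays each of cells exposed to 100 µg/ml TiO2 nanobelts or to 10 µg/ml multi-walled carbon nanotubes (MWCNT) for 24 h, and of cells exposed to 10 µg/ml TiO2 nanobelts or to no particles for 1 h, are used in a few places below. The labels name the replicates as biological but do not say whether they came from separate donors or cultures, so that p-values measure only the spread between these samples. Unless stated otherwise, that spread was estimated from all 30 arrays of the series, in 10 groups, and not from the compared arrays alone.

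TiO2 nanobelts are ribbon-shaped crystals of a poorly soluble oxide, used as a long, thin counterpart of round TiO2 particles in inhalation toxicology. The epithelium of the small airways is made of basal, secretory and ciliated cells. It clears inhaled matter with mucus and cilia, signals to immune cells through cytokines, and can shift towards a squamous, skin-like programme after injury. Known readouts of particle exposure in such cells include antioxidant genes driven by NRF2, cytokine genes driven by NF-kB, and immediate early genes that follow growth factor signalling.

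The deposited values are log2 signals made with RMA, which the authors normalised together for 30 arrays. Of the 22277 probe sets, 19064 carried 1 gene symbol, and for each of 11963 genes the probe set with the highest mean over all arrays was tested. Correlations between arrays ranged from 0.985 to 0.9989, and no 2 arrays were identical. The cells carried the epithelial keratins at a high signal, with means over all arrays of 12.92 for KRT18 and 11.67 for KRT8. The signals of KRT5 at 7.24 and CDH1 at 7.93 lay just above the table's median of 7.1788, and those of EPCAM at 6.9 and KRT14 at 3.94 lay below it. Of 12 measured epithelial identity genes, 4 lay above the median, so that an airway identity by this list rests on few probe sets. Of 15 measured basal cell markers 12 lay above the median, compared with 3 of 19 secretory and 2 of 10 ciliated markers. Immune and endothelial defining genes were low: 1 of 14 immune genes (CD14) and 0 of 9 endothelial genes lay above the median, and PTPRC, the pan-leukocyte gene, had a mean of 3.5.

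The control arrays strayed unevenly from their group. The limma array weights, which fall as an array strays from its group, were 0.62, 0.82 and 1.36 for the exposed arrays and 0.31, 0.41 and 4.87 for the control arrays. The lowest was that of control replicate 1, followed by that of control replicate 2. The 3′ minus 5′ difference of the ACTB control probe sets was 0.4, 0.59 and 0.42 on the log2 scale in the exposed arrays and 0.86, 0.47 and 0.44 in the control arrays, replicate 1 being the first of these. GAPDH's difference stayed between 0.03 and 0.11 in all 6 arrays. EGFR, the epidermal growth factor receptor of basal cells, had log2 signals of 10.40, 10.34 and 10.23 in exposed cells, against 8.09, 10.36 and 10.23 in control cells. At this probe set control replicate 1 alone was low, while another probe set of the gene differed by -0.06 between the groups. Without control replicate 1 the difference at the first probe set was 0.03 (adjusted p = 0.937, limma). With all probe sets of EGFR averaged over all 6 arrays, the difference was 0.26 and passed (adjusted p = 0.033). The part of control replicate 1 in the results was not tested beyond leaving it out, and values without it are given below. For control replicate 2 only the counts without it are given.

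After 24 h at 10 µg/ml, 305 genes rose and 419 fell relative to control, 724 of 11963 genes or 6.05% (2.55% higher, 3.50% lower; limma, adjusted p under 0.05). The changes were small. The median size of the called differences was 0.29 on the log2 scale, and 3 called genes passed 1.5-fold: FXYD3 and FOSB were higher and ECM2 was lower. The smallest adjusted p was 0.0137. The 3 exposed and 3 control arrays did not overlap for 1177 genes that were higher (9.84%) and 1851 that were lower (15.5%). Without control replicate 1, 74 genes passed, 56 higher and 18 lower. Without control replicate 2, 956 passed, 260 higher and 696 lower. When the limma fit held only the 6 arrays compared, 0 genes passed (smallest adjusted p = 0.114), with 2115 at an unadjusted p under 0.05, compared with 3157 in the fit of all arrays.

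The direction of a call went with the signal of its probe set. Of the 305 genes that rose, 245 (80.3%) had a mean signal under the table's median, compared with 43 of the 419 that fell (10.3%) and 5040 of all genes (42.1%). When genes were sorted by signal into 10 bins of equal size, the median difference of exposed from control cells was 0.046, 0.096, 0.088 and 0.038 in the 4 lowest bins and lay between -0.088 and -0.026 in the 6 others. The bins of TiO2 nanobelts at 100 µg/ml ran the same way, from -0.099 to 0.088, against the same 3 control arrays, whereas those of MWCNT at 10 µg/ml, also against these controls, stayed between -0.017 and 0.006. The quartiles of the arrays moved too. The lower quartile was 5.44 to 5.46 in exposed cells and 5.37 in control cells, and the upper one was 9.18 to 9.2 in exposed cells and 9.24 to 9.26 in control cells.

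Cyclic loess, which removes differences that depend on signal, left 112 genes higher and 65 lower, of which 103 and 58 were also called on the deposited values. Quantile normalisation of the gene values, added after the data were seen, left 111 higher and 57 lower. The share of calls that were higher was thus 42.1% in the deposited values, 63.3% after cyclic loess and 66.1% after quantile normalisation. What the dependence on signal comes from was not tested. In bulk samples such as these, a change in the share of a cell type and a change in RNA per cell cannot be told apart.

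**Figure D1:**
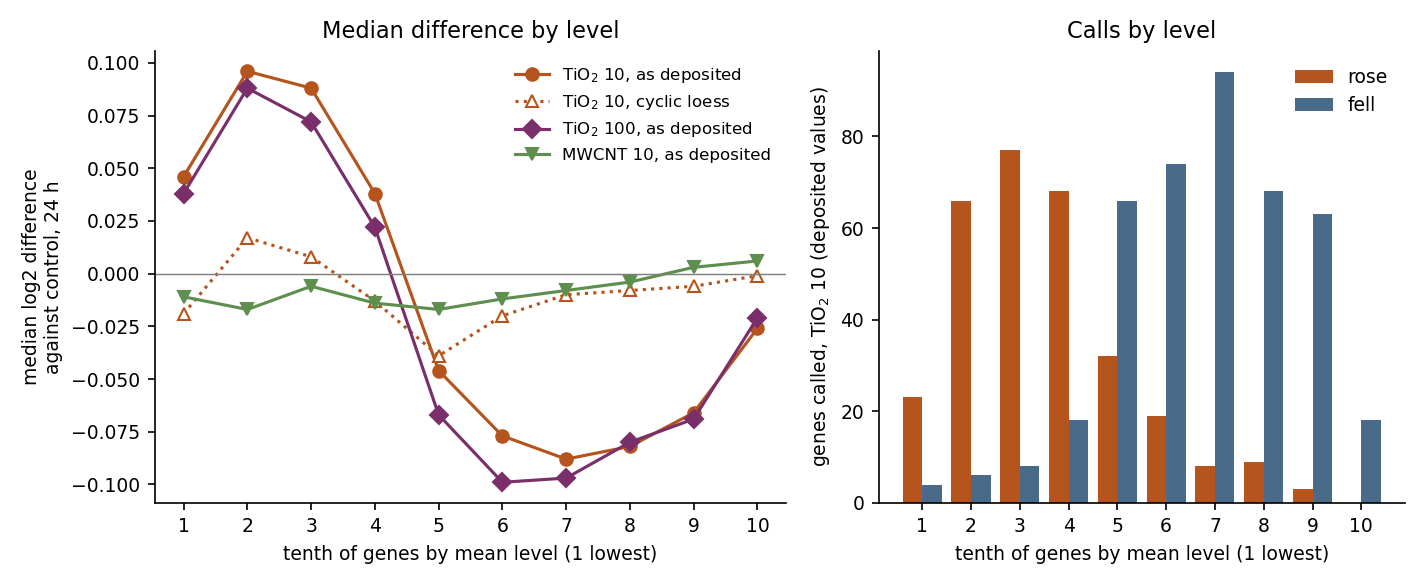
Median log2 difference from the 24 h control in 10 bins of genes sorted by mean signal (x axis, low to high), for TiO2 nanobelts at 10 µg/ml as deposited and after cyclic loess, TiO2 nanobelts at 100 µg/ml and MWCNT at 10 µg/ml, with the number of genes that rose and fell in each bin. The deposited TiO2 lines lie above 0 in the 4 lowest bins and below 0 in the rest, and the rises at 10 µg/ml are mostly in the low bins.

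**Figure D2:**
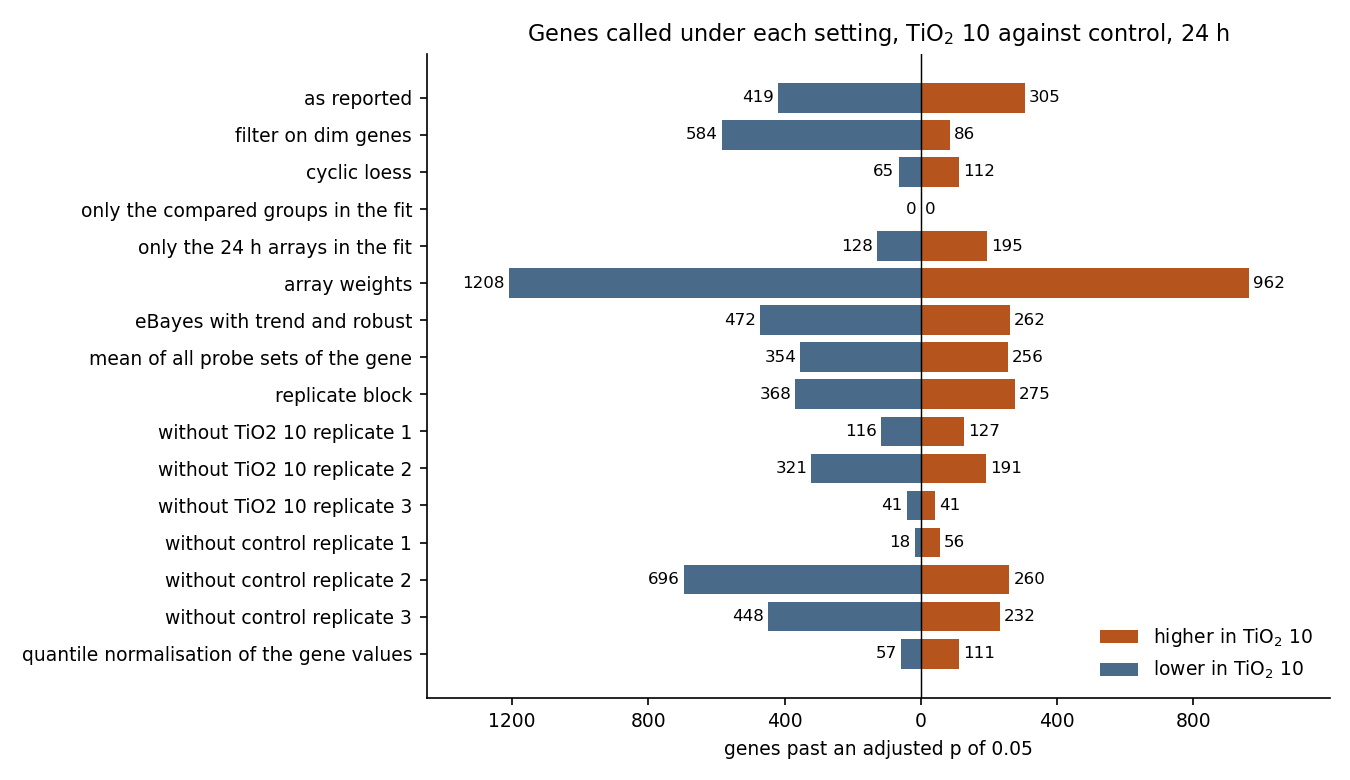
Number of genes higher and lower in cells exposed to TiO2 nanobelts at 10 µg/ml than in control cells at 24 h under each setting of the analysis. The counts run from 0 with only the compared arrays in the fit to 2170 with array weights, and 724 is the count on the deposited values.

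A smaller set of genes was picked after the values were seen, as those called in the same direction in the deposited values, after cyclic loess, after quantile normalisation and without control replicate 1. There were 44 such genes, 35 higher and 9 lower, of which 28 (19 higher and 9 lower) were also called when each other exposed or control array was left out. With only the compared arrays in the fit none of them passed. Of the 20 with more than 1 probe set, 11 passed when all probe sets of the gene were averaged and 9 did not, among them SLC7A8, PLCB2, LLGL1, CDSN, SLC1A1, EPB41L4B and SLC33A1. In 11 of the 35 higher and 7 of the 9 lower genes, the mean of the group with the higher signal lay above the table's median. The median differences of the 35 and the 9 were 0.41 and -0.32.

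FXYD3, a small membrane protein that regulates the sodium pump, had the largest difference among them. Its log2 signal (chromosome 19) was 6.95, 7.13 and 7.19 in exposed cells, against 6.62, 6.25 and 6.50 in control cells. The groups did not overlap, and the difference was 0.63 ± 0.12 (SE, adjusted p = 0.0137, limma), or 0.59 after cyclic loess and 0.72 without control replicate 1. CA14, a membrane-bound carbonic anhydrase that hydrates carbon dioxide at the cell surface, was 6.98, 7.05 and 7.07 in exposed cells, against 6.63, 6.33 and 6.47 in control cells. Every exposed array lay above every control array, by 0.56 ± 0.10 on average (SE, adjusted p = 0.0137). PTPRN2, a phosphatase-like protein of secretory granules, also rose by 0.56 ± 0.10. OR2S2, an olfactory receptor gene, followed at 0.54 ± 0.10. Further rises were IGHG1 at 0.48, GABRA4 at 0.47, CD80 at 0.45, MYOC at 0.43, LUZP4 at 0.40 and TREM2 at 0.34. From OR2S2 to TREM2, the means of these genes lay under the table's median in both groups. The genes described below are only a part of the 35.

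The 35 included solute carriers and a channel. SLC7A8, an exchanger of neutral amino acids, was 7.95, 7.88 and 7.82 in exposed cells and 7.60, 7.25 and 7.48 in control cells, a difference of 0.44 ± 0.10 (SE, adjusted p = 0.0192). It was 0.21 with its 5 probe sets averaged (adjusted p = 0.074), and the call was also lost without exposed replicate 1. SLC2A5, the fructose transporter, was 6.43, 6.56 and 6.45 in exposed cells and 6.12, 5.71 and 6.19 in control cells. SLC11A1, a divalent metal transporter of phagosome membranes, was 7.46, 7.43 and 7.43 in exposed cells and 7.07, 6.91 and 7.16 in control cells. Both sets of 3 lay apart, by 0.47 ± 0.10 for SLC2A5 (SE, adjusted p = 0.0191) and 0.39 ± 0.08 for SLC11A1 (SE, adjusted p = 0.0160). KCNQ1, a voltage-gated potassium channel, rose by 0.35 ± 0.08 (SE, adjusted p = 0.0224). It kept its call in 6 of 9 settings, as did DMBT1 and PGLYRP4 below. However, 4 of the 9 settings had served to pick these genes, so that passing those was given in advance. The list of airway ion channels and solute transporters holds none of SLC7A8, SLC2A5, SLC11A1 and KCNQ1. On it, 0 of 25 measured genes rose and 1 fell: CLIC3, a chloride channel protein, differed by -0.35 (adjusted p = 0.0479) and lost its call in 10 of 14 alternatives.

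Among genes of the cell surface and of signalling, AVPR1B, a vasopressin receptor, was 7.70, 7.74 and 7.64 in exposed cells, against 7.30, 7.29 and 7.17 in control cells. PLCB2, a phospholipase C that acts downstream of such receptors, was 7.28, 7.19 and 7.34 in exposed cells and 6.96, 6.91 and 6.72 in control cells. The arrays of the 2 groups were separate for both, with differences of 0.44 ± 0.09 (SE, adjusted p = 0.0158) for AVPR1B and 0.41 ± 0.09 (SE, adjusted p = 0.0210) for PLCB2, or 0.25 with its probe sets averaged (adjusted p = 0.0862). PAX8, a paired-box transcription factor, was 8.73, 8.51 and 8.74 in exposed cells and 8.27, 8.25 and 8.22 in control cells, 0.42 ± 0.09 higher (SE, adjusted p = 0.0167), or 0.24 with its 8 probe sets averaged (adjusted p = 0.0197). LLGL1, a cell polarity protein, was 8.18, 8.20 and 8.16 in exposed cells and 7.81, 7.83 and 7.75 in control cells, but another probe set of the gene differed by -0.03.

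DMBT1, a secreted scavenger protein of mucosal surfaces, was 7.38, 7.54 and 7.51 in exposed cells, against 7.18, 6.89 and 7.16 in control cells, 0.40 ± 0.09 higher (SE, adjusted p = 0.0222). CDSN, the corneodesmosin that holds keratinised cells together, was 6.06, 5.98 and 6.01 in exposed cells, against 5.57, 5.33 and 5.63 in control cells. The difference was 0.50 ± 0.11 (SE, adjusted p = 0.0172), or 0.34 with its probe sets averaged (adjusted p = 0.0548). PGLYRP4, a peptidoglycan recognition protein, rose by 0.41. EGLN3, a prolyl hydroxylase of the hypoxia-inducible factors, was the only one of 29 measured hypoxia and glycolysis genes that passed in either direction, beside 6.05% of all genes. Its signal lay near the table's lowest value of 2.3, at 3.32, 3.39 and 3.48 in exposed cells and 3.18, 3.01 and 3.10 in control cells. The call was lost without exposed replicate 3.

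The 9 genes that fell included SLC1A1 and ZNF365. SLC1A1, which takes up glutamate and cysteine, was 6.67, 6.86 and 6.75 in exposed cells, against 7.28, 7.22 and 7.32 in control cells. The arrays did not overlap, and the difference was -0.51 ± 0.10 (SE, adjusted p = 0.0158), but -0.21 with both probe sets averaged (adjusted p = 0.125). ZNF365, a zinc-finger protein, was 6.62, 6.90 and 6.87 in exposed cells and 7.39, 7.18 and 7.24 in control cells, -0.48 ± 0.08 (SE, adjusted p = 0.0137). EPB41L4B, a FERM-domain protein that links membrane and cytoskeleton, was 10.00, 10.09 and 9.94 in exposed cells and 10.47, 10.26 and 10.28 in control cells, -0.32 ± 0.05 (SE, adjusted p = 0.0137), but -0.12 with both probe sets averaged (adjusted p = 0.274). SLC33A1, the acetyl-coenzyme A transporter of the endoplasmic reticulum, fell by 0.30 on the log2 scale, with -0.11 at another of its probe sets. THAP9, CCDC22, PUDP, ARMCX5 and LOC100287387 made up the rest.

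**Figure D3:**
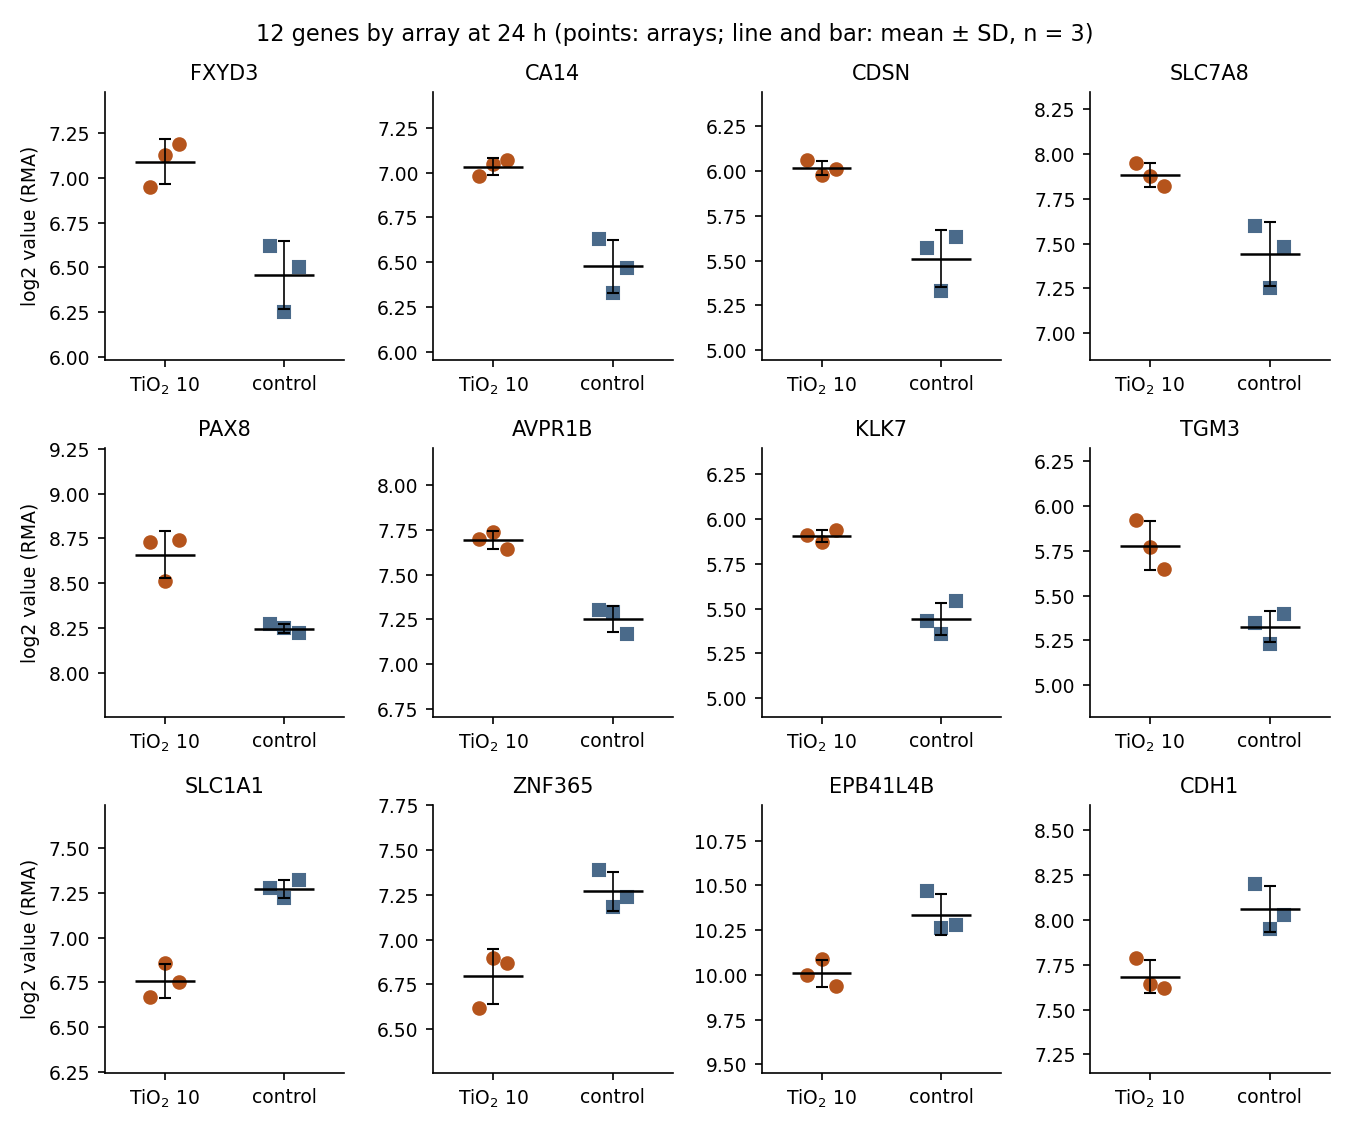
Log2 signal of 12 genes in the 3 arrays of cells exposed to TiO2 nanobelts at 10 µg/ml for 24 h (left) and the 3 control arrays (right), with each array as a point and the mean ± SD (n = 3 each). The groups do not overlap for any of the 12 genes, and for FXYD3 the means are 7.09 in exposed cells and 6.46 in control cells.

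By the fixed rule, the 15 largest rises and falls were taken among called genes whose arrays did not overlap and whose higher group lay above the table's median. AVPR1B, SLC7A8, PAX8 and PLCB2 are the only 4 of these 15 rises that also passed without control replicate 1. EPOR, the erythropoietin receptor, led with 8.85, 8.93 and 9.11 in exposed cells and 8.44, 8.40 and 8.60 in control cells, 0.48 ± 0.11 higher (SE, adjusted p = 0.0222), but 0.10 with its probe sets averaged (adjusted p = 0.282). PGF, a growth factor of the VEGF family, was 9.20, 8.96 and 9.11 in exposed cells and 8.58, 8.72 and 8.73 in control cells, 0.41 ± 0.09 higher (SE, adjusted p = 0.0160), but 0.16 with its probe sets averaged (adjusted p = 0.168). HAUS2, UBQLN4, ZNF721, SLC35E1 and CAMKK2 all had their lowest value in control replicate 1. HAUS2, a subunit of the augmin complex of the spindle, was 9.04, 8.94 and 8.92 in exposed cells and 8.09, 8.67 and 8.73 in control cells, and its difference of 0.47 was 0.26 without control replicate 1 (adjusted p = 0.179). SLC35E1 rose by 0.42, while its other probe sets differed by 0.08 and 0.10. CAMKK2, a kinase upstream of AMPK, rose by 0.42 at 1 probe set and differed by 0.01 at another. The probe sets of EPOR, HAUS2, UBQLN4, ZNF721, SLC7A8, SLC35E1 and PGF carry the suffix x_at or f_at. Matches of their probes to other transcripts were not examined. The same holds for PTPRN2 and SLC11A1 above and for SPRR1A, MT1G and KRT8 below.

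Among the 15 named falls beyond SLC1A1 and ZNF365, TRPS1, a GATA-type repressor, was 7.37, 7.15 and 7.38 in exposed cells and 7.89, 7.71 and 7.64 in control cells. Its difference was -0.45 ± 0.09 (SE, adjusted p = 0.0160), and -0.37 without control replicate 1 (adjusted p = 0.0714). COL8A1, a short-chain collagen, was 7.03, 7.07 and 7.07 in exposed cells and 7.65, 7.31 and 7.52 in control cells, -0.44 ± 0.12 (SE, adjusted p = 0.0316), and lost its call in 9 of 15 alternatives, with -0.42 after cyclic loess (adjusted p = 0.0746), -0.36 without control replicate 1 (adjusted p = 0.146) and -0.24 with probe sets averaged (adjusted p = 0.138). PLCB1 was 7.23, 7.17 and 7.15 in exposed cells and 7.95, 7.38 and 7.49 in control cells, but its difference of -0.42 turned to 0.03 when all its probe sets were averaged (adjusted p = 0.8). Across the genes with a further probe set above the table's median, that set moved in the same direction for 13 of 20 that rose (65.0%) and 86 of 109 that fell (78.9%), with median differences of 0.08 and -0.11 in place of 0.28 and -0.22.

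Of 35 measured genes of squamous differentiation, the programme that builds the cornified envelope, 6 rose and 0 fell. The background was 2.55% higher over all genes. The list's median difference was 0.115, compared with -0.025 for all genes, and 25 of the 35 differences were positive. The probe sets of this list were low, 6 of 35 above the table's median, and in the third of the 10 signal bins, which holds its median signal of 5.81, the median difference of all genes was 0.088 and 77 of 1196 genes rose. None of the 35 passed after cyclic loess or quantile normalisation, or without control replicate 1, and the median was then 0.044, 0.041 and 0.073. It was -0.076 over the members left by a filter on dim probe sets.

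KLK7, a protease that cuts desmosomal proteins in shedding skin, was 5.91, 5.87 and 5.94 in exposed cells, against 5.43, 5.36 and 5.54 in control cells, 0.46 ± 0.13 higher (SE, adjusted p = 0.0360). TGM3, a transglutaminase that cross-links the envelope, was 5.92, 5.77 and 5.65 in exposed cells, against 5.35, 5.23 and 5.40 in control cells, 0.46 ± 0.12 higher (SE, adjusted p = 0.0354). SPRR1A, one of the envelope's proline-rich proteins, was 7.17, 7.02 and 6.95 in exposed cells, against 6.58, 6.71 and 6.75 in control cells. All 3 genes were separated between the groups, and SPRR1A's difference was 0.37 ± 0.10 (SE, adjusted p = 0.0338). KLK10 rose by 0.33 and KLK11 by 0.31, and DSC2, a desmosomal cadherin, by 0.29. IVL, the envelope protein involucrin, differed by 0.37 (adjusted p = 0.082) and KRT1 by 0.31 (adjusted p = 0.0751), whereas TGM1 differed by -0.15 and LCN2 by -0.17 and neither passed. Against MWCNT, 5 of the 35 genes were higher, beside 2.83% of all genes: KLK7 by 0.47, TGM3 by 0.44, and SPRR1A, KLK10 and S100A7 by 0.34 each. That comparison shares the exposed arrays and these low signals. Over all genes its calls went from 584 to 206 after cyclic loess and to 20 without MWCNT replicate 1.

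**Figure D4:**
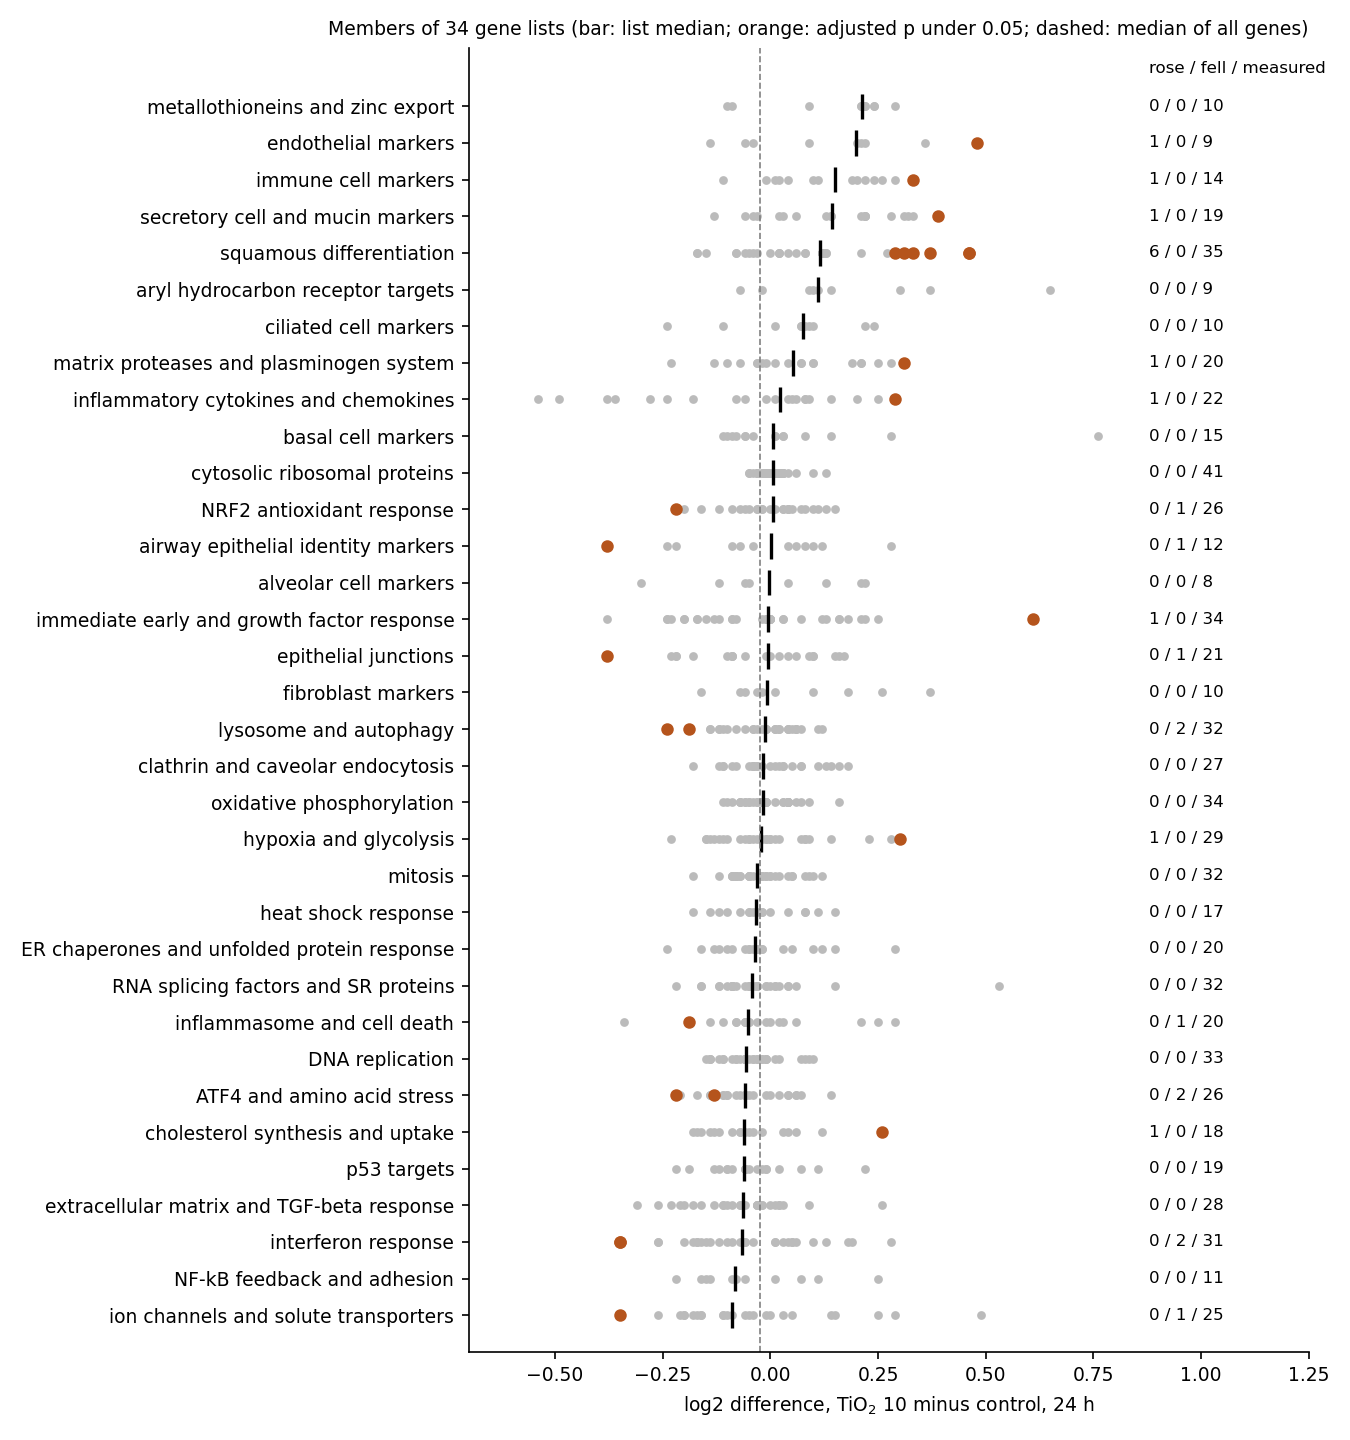
Log2 difference of cells exposed to TiO2 nanobelts at 10 µg/ml from control cells at 24 h for the members of 34 gene lists, with the list median as a bar, called genes in orange and the median of all genes as a dashed line at -0.025. Squamous differentiation holds 6 called genes, and no other list holds more than 2.

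Secretory cells make mucins and antimicrobial proteins and carry antibodies across the epithelium. Of 19 measured markers of these cells, 1 rose and 0 fell, beside 2.55% of all genes higher, with a median difference of 0.142 and 15 positive differences. That median stayed between 0.106 and 0.172 when each array was left out, and was 0.140 after cyclic loess and 0.146 after quantile normalisation, but it was -0.056 over the members left by the filter on dim probe sets. Only 3 of the 19 lay above the table's median. The gene that rose was PIGR, the receptor that carries polymeric antibodies to the airway surface. Its signal was 7, 6.76 and 6.87 in exposed cells, against 6.54, 6.40 and 6.52 in control cells, 0.39 ± 0.10 higher (SE, adjusted p = 0.0267). Its adjusted p was 0.0481 after cyclic loess, 0.0432 after quantile normalisation and 0.0713 without control replicate 1.

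The gel-forming mucins did not pass against control. MUC5AC was 7.07, 6.83 and 6.91 in exposed cells and 6.64, 6.43 and 6.76 in control cells, a difference of 0.33 (adjusted p = 0.112), and MUC5B differed by 0.22 (adjusted p = 0.118). The arrays did not overlap for either gene. Against MWCNT, 4 of the 19 were higher and 0 lower, with 2.83% of all genes higher. MUC5AC was 0.58 ± 0.13 higher (SE, adjusted p = 0.0166), AGR2, which folds mucins, by 0.49 (adjusted p = 0.0217), CYP2F1, a lung cytochrome, by 0.45 (adjusted p = 0.00961) and PIGR by 0.39 (adjusted p = 0.0274). The list's median signal was low, at 5.68. Over all genes the calls against MWCNT went from 584 to 206 after cyclic loess and to 20 without MWCNT replicate 1. Whether these 4 genes kept their calls against MWCNT in such settings was not examined. Over the list, summed log2 signals were 114.8, 115.1 and 114.7 in exposed cells and 112.4, 111.7 and 112.2 in control cells.

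The immune and endothelial marker lists, of cells that should be rare in these cultures, had medians of a like size. The immune list had a median difference of 0.151, with CD4 the single call of 14 at 0.33 (adjusted p = 0.0495). Its summed signals were 79.5, 78.7 and 80.3 in exposed cells and 78.1, 76.9 and 77.7 in control cells. The endothelial list had a median of 0.199, with TIE1 the single call of 9, at 4.74, 4.6 and 4.86 in exposed cells and 4.27, 4.14 and 4.36 in control cells. Their summed signals were 48.2, 48.2 and 48.8 in exposed cells and 47.2, 46.8 and 47.2 in control cells. The part of such low signals in the secretory and squamous medians was not tested. The fibroblast and alveolar lists, also of cells that should be rare, had medians of -0.009 and -0.004. None of 10 fibroblast, 8 alveolar, 15 basal or 10 ciliated markers passed in either direction.

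Interferon-induced genes carry in their promoters a motif, the interferon-stimulated response element. Of 31 measured genes of this response, 0 rose and 2 fell, beside 3.50% of all genes lower, with a median difference of -0.065. IFIT1, which binds viral RNA, and IFI44 were those 2. The RefSeq promoters (GRCh38.p14, plus strand, the 150 bases before the start) of both are shown because they hold this motif, searched on both strands as GAAA, any 2 bases and GAAA. The capitals mark matches on the opposite strand, which read TTTC, any 2 bases and TTTC. IFI44 has 2 starts in the table, 1 of which is shown.
IFIT1, chr10:89392473-89392622: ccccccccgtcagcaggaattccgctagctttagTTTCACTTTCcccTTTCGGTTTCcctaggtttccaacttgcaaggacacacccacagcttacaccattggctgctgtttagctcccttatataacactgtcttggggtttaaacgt
IFI44, chr1:78649639-78649788: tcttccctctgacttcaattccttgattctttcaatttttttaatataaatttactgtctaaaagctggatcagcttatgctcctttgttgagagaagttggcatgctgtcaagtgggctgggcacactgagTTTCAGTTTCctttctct

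The motif was found within 250 bases before the start in 18 of the 25 interferon genes that matched the table (72%), counting a gene if any of its starts held it, compared with 341 of 9563 matched genes tested (3.57%) and 1061 of all 35116 promoters (3.02%). IFIT1 was 7.31, 7.41 and 7.37 in exposed cells, against 7.98, 7.49 and 7.67 in control cells, -0.35 ± 0.10 (SE, adjusted p = 0.0357). IFI44 was 7.56, 7.36 and 7.45 in exposed cells, against 8.06, 7.60 and 7.75 in control cells, -0.35 ± 0.09 (SE, adjusted p = 0.0300). Control replicate 1 was the highest array for both genes, and without it the differences were -0.22 each and neither passed (adjusted p = 0.215 for IFIT1 and 0.182 for IFI44). None of the 31 passed after cyclic loess or quantile normalisation.

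Oxidative and metal stress genes showed few calls. The shares over all genes, 2.55% higher and 3.50% lower, also stand beside the counts of the other lists below. Of 26 measured NRF2 targets 0 rose and 1 fell, with a median of 0.005. HMOX1, heme oxygenase, was 8.47, 8.57 and 8.43 in exposed cells and 8.64, 8.49 and 8.43 in control cells, a difference of -0.03 (adjusted p = 0.803), and NQO1, a quinone reductase, differed by 0.10 (adjusted p = 0.424). The gene that fell was SLC7A11, the cystine importer that feeds glutathione synthesis. It was 10.92, 11.05 and 10.87 in exposed cells and 11.31, 11.11 and 11.07 in control cells, -0.22 ± 0.06 (SE, adjusted p = 0.0347). It did not pass after cyclic loess or quantile normalisation (-0.17, adjusted p = 0.112 for each) or without control replicate 1 (-0.15, adjusted p = 0.195). SLC7A11 is also on the list of ATF4 targets, of which 0 of 26 rose and 2 fell. The other was ASNS, asparagine synthetase, at -0.13 ± 0.03 (SE, adjusted p = 0.0288), with an adjusted p of 0.116 without control replicate 1.

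None of 10 metallothioneins and zinc exporters passed, although 8 of the 10 differences were positive and their median was 0.212. That median was 0.062 without control replicate 1. MT1G was 11.59, 11.77 and 11.69 in exposed cells and 11.29, 11.55 and 11.54 in control cells (adjusted p = 0.102). CYP1B1, the most changed of 9 targets of the aryl hydrocarbon receptor, was 10.9, 11 and 10.9 in exposed cells and 9.3, 10.81 and 10.74 in control cells. Its difference of 0.65 (adjusted p = 0.0977) thus includes 1 low control array. No gene passed among 17 heat shock genes, 20 genes of the unfolded protein response or 19 p53 targets.

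Inflammatory genes gave single calls. Of 22 cytokine and chemokine genes, 1 rose, IL24, by 0.29 ± 0.08 (SE, adjusted p = 0.0408), and 0 fell. IL24 lost its call in 10 of 14 alternatives, with 0.21 after cyclic loess (adjusted p = 0.185) and an adjusted p of 0.1 without control replicate 1. CXCL8, the neutrophil attractant, was 5.83, 5.65 and 6 in exposed cells and 7.16, 5.75 and 5.65 in control cells, -0.36 (adjusted p = 0.46). CXCL1 differed by -0.49 and CCL20 by -0.54 (adjusted p = 0.148 for each), with overlapping arrays and the highest control value of both in replicate 1. None of 11 NF-kB feedback and adhesion genes passed, and CASP4, an inflammatory caspase, was the 1 of 20 inflammasome and cell death genes to fall, by 0.19 on the log2 scale (adjusted p = 0.0468). It lost its call in 11 of 15 alternatives, with -0.12 after cyclic loess (adjusted p = 0.228).

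In the lists of cell contacts and growth signalling 1 gene each passed. CDH1, the E-cadherin of adherens junctions, was the 1 of 21 junction genes that fell. It was 7.79, 7.64 and 7.62 in exposed cells, against 8.20, 7.95 and 8.03 in control cells, -0.38 ± 0.08 (SE, adjusted p = 0.0190). The difference was -0.34 after cyclic loess (adjusted p = 0.0466), -0.32 after quantile normalisation (adjusted p = 0.0423) -0.30 without control replicate 1 (adjusted p = 0.0877) and -0.15 with all its probe sets averaged (adjusted p = 0.187). FOSB, a subunit of the AP-1 factor, was the 1 of 34 immediate early genes to rise. It was 6.32, 6.35 and 6.43 in exposed cells and 5.43, 6.07 and 5.77 in control cells, 0.61 ± 0.14 higher (SE, adjusted p = 0.0222), and 0.45 without control replicate 1 (adjusted p = 0.125).

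MMP9, a gelatinase that degrades basement membrane, was 6.82, 6.64 and 6.82 in exposed cells and 6.49, 6.40 and 6.47 in control cells, and was the 1 of 20 matrix protease genes to rise (0.31, adjusted p = 0.0365). It lost its call in 9 of 14 alternatives, with an adjusted p of 0.0785 after cyclic loess and 0.096 without control replicate 1. MVK, mevalonate kinase, was 9.09, 9.06 and 9.18 in exposed cells and 8.80, 8.88 and 8.87 in control cells, and was the 1 of 18 cholesterol genes to rise, by 0.26 ± 0.06 (SE, adjusted p = 0.0224). The difference was 0.33 after cyclic loess (adjusted p = 0.0205), 0.23 without control replicate 1 (adjusted p = 0.0983) and 0.08 with its probe sets averaged (adjusted p = 0.359). ATP6V1B2, a subunit of the proton pump that acidifies lysosomes, fell by 0.24 on the log2 scale (adjusted p = 0.0281), and with WIPI1, an autophagy protein, was the whole of the calls among 32 lysosome and autophagy genes. Neither passed after cyclic loess (adjusted p = 0.115 for ATP6V1B2 and 0.228 for WIPI1) or without control replicate 1 (adjusted p = 0.146 for ATP6V1B2 and 0.115 for WIPI1). No gene passed among 32 mitosis, 33 DNA replication, 28 matrix, 34 oxidative phosphorylation, 41 ribosomal protein, 32 splicing or 27 endocytosis genes.

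The direct comparison with MWCNT at the same dose and time takes no difference from the control arrays. It shares the exposed arrays with the comparison above, and its spread was estimated from all arrays of the series. The control arrays thus enter its SE and adjusted p. In cells exposed to TiO2 nanobelts 339 genes were higher and 245 lower than under MWCNT (4.88% in all, 2.83% higher and 2.05% lower). These counts became 163 and 43 after cyclic loess and 178 and 46 after quantile normalisation. In all, 584 genes passed, compared with 7 when only the compared groups were in the fit. Without MWCNT replicate 1 the count was 20, and without MWCNT replicate 2 it was 798. Whether the genes named in this paragraph kept their calls against MWCNT in such settings was not examined. B3GNT4, a glycosyltransferase, was 7.87, 7.76 and 7.80 with TiO2 nanobelts, against 7.10, 7.46 and 7.33 with MWCNT, 0.51 ± 0.11 higher (SE, adjusted p = 0.0118). DMBT1 was 7.38, 7.54 and 7.51 with TiO2 nanobelts, against 6.91, 7.05 and 6.93 with MWCNT, 0.51 ± 0.09 higher (SE, adjusted p = 0.00738). VIPR1, the receptor of vasoactive intestinal peptide, was 0.48 higher than under MWCNT (adjusted p = 0.0323). DOHH, a hydroxylase that modifies the translation factor eIF5A, was 7.88, 7.67 and 7.84 with TiO2 nanobelts, against 8.29, 8.13 and 8.17 with MWCNT, -0.40 ± 0.07 (SE, adjusted p = 0.00738). COL8A1 was 7.03, 7.07 and 7.07 with TiO2 nanobelts, against 7.27, 7.53 and 7.73 with MWCNT, -0.45 ± 0.12 (SE, adjusted p = 0.0274).

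Between the doses, 80 genes were higher and 38 lower at 100 than at 10 µg/ml of TiO2 nanobelts, 0.986% of all genes (0.669% higher and 0.318% lower). IER3, a stress- and growth factor-induced gene, was 7.48, 7.51 and 7.53 in control cells, 7.50, 7.59 and 7.44 at 10 µg/ml and 8.80, 8.61 and 8.43 at 100 µg/ml. Its difference from control at 10 µg/ml was 0.00 ± 0.08 (SE, adjusted p = 0.983), and it was 1.10 ± 0.08 higher at 100 than at 10 µg/ml (SE, adjusted p = 6.02e-09). ETV5, a transcription factor induced by growth factor signalling, was 6.19, 6.13 and 6.12 in control cells, 6.16, 6.33 and 6.33 at 10 µg/ml and 7.43, 7.29 and 7.27 at 100 µg/ml. The step between the doses was 1.06 ± 0.10 (SE, adjusted p = 3.3e-07). ABCC3, an export pump for conjugated organic anions, was 7.93, 7.86 and 7.77 in control cells, 7.92, 7.93 and 7.91 at 10 µg/ml and 8.75, 8.71 and 8.77 at 100 µg/ml, a step of 0.82 ± 0.05 (SE, adjusted p = 7.99e-10).

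Of 34 immediate early and growth factor response genes, 13 were higher at 100 than at 10 µg/ml and 0 lower, among them DUSP6 by 0.91 (adjusted p = 0.000305) and SPRED2 by 0.74 (adjusted p = 1e-05), both feedback inhibitors of ERK signalling. The list's median difference from control was 0.263 at 100 µg/ml and -0.005 at 10 µg/ml, over the same control arrays. KRT8, a keratin of simple epithelia, was 11.12, 11.82 and 11.6 in control cells, 11.56, 11.62 and 11.66 at 10 µg/ml and 11.18, 10.89 and 10.97 at 100 µg/ml, a step of -0.60 ± 0.12 (SE, adjusted p = 0.00946). ANO2, a calcium-activated chloride channel, was already lower at 10 µg/ml. It was 7.59, 7.36 and 7.43 in control cells, 7.16, 7.24 and 7.17 at 10 µg/ml and 6.84, 6.57 and 6.56 at 100 µg/ml, differing by -0.27 ± 0.06 between 10 µg/ml and control (SE, adjusted p = 0.0224) and by -0.53 ± 0.06 between the doses (SE, adjusted p = 3.16e-05).

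**Figure D5:**
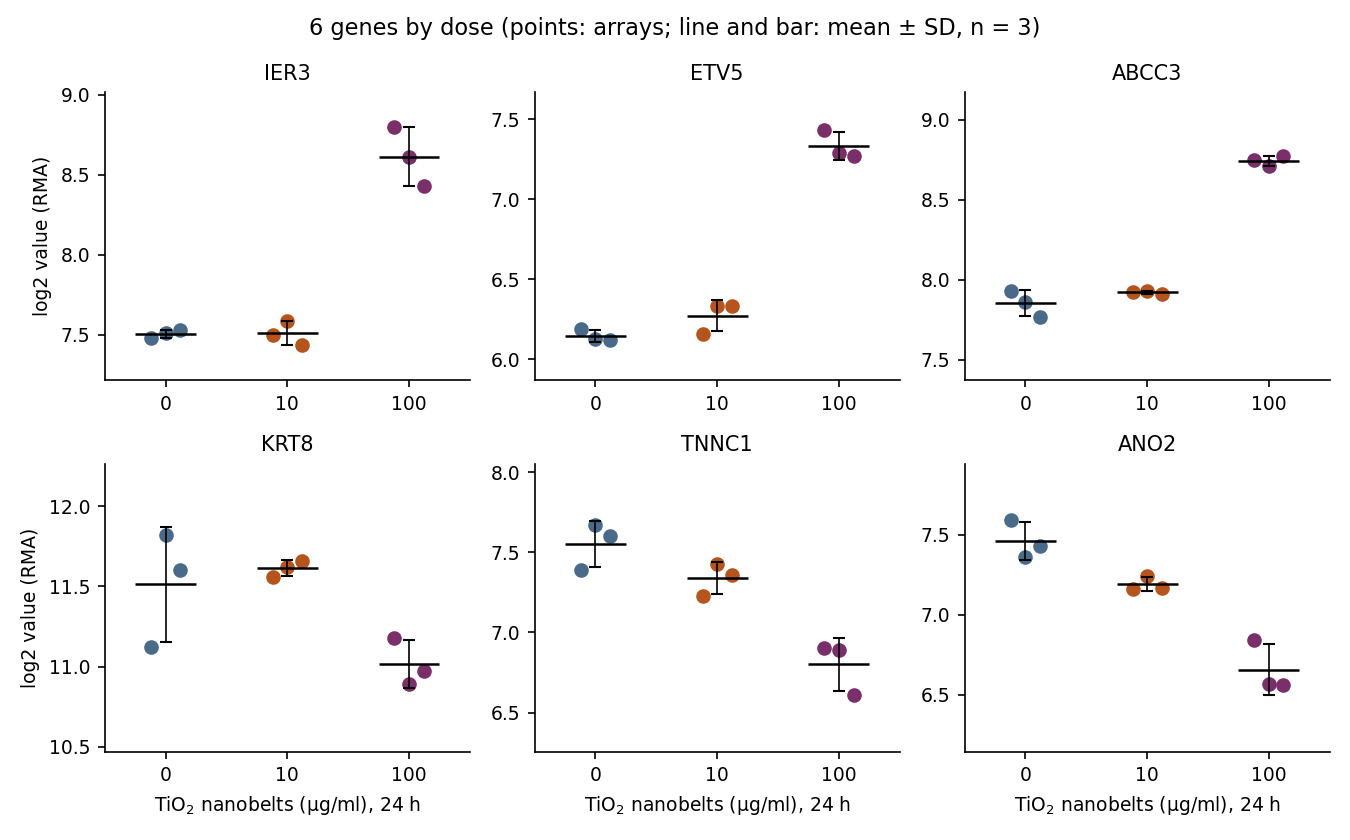
Log2 signal of IER3, ETV5, ABCC3, KRT8, TNNC1 and ANO2 at 24 h against the dose of TiO2 nanobelts (0, 10 and 100 µg/ml), with each array as a point and the mean ± SD (n = 3 each). IER3, ETV5 and ABCC3 lie near their control values at 10 µg/ml and are higher at 100 µg/ml, while ANO2 is lower at each dose.

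The effect of 10 µg/ml at 24 h was also set against its effect at 1 h, each relative to the control of its own time. The difference of effects passed for 2 genes (0.0167%), with 1614 at an unadjusted p under 0.05. KLF7, a Krüppel-like transcription factor, was 8.01, 8.16 and 7.97 in exposed cells and 7.80, 8.04 and 8.16 in control cells at 24 h, an effect of 0.04 ± 0.07. At 1 h it was 8.96, 8.94 and 9.02 in exposed cells and 8.26, 8.25 and 8.44 in control cells, an effect of 0.66 ± 0.07 (SE, adjusted p = 1.68e-05). The difference of effects, 24 h minus 1 h, was -0.61 ± 0.10 (SE, adjusted p = 0.0215). It did not pass after cyclic loess (-0.57, adjusted p = 0.0748) or quantile normalisation (-0.54, adjusted p = 0.0648). RAB3IL1, which binds the vesicle GTPase Rab3A, was 7.49, 7.36 and 7.40 in exposed cells and 7.22, 7.03 and 7.13 in control cells at 24 h. At 1 h it was 7.14, 7.23 and 7.14 in exposed cells and 7.32, 7.41 and 7.29 in control cells, so that the arrays were separate at both times but in opposite directions. Its effects were 0.29 ± 0.06 at 24 h (SE, adjusted p = 0.0154) and -0.17 ± 0.06 at 1 h (SE, adjusted p = 0.254), which differed by 0.46 ± 0.08 (SE, adjusted p = 0.031), or 0.44 after cyclic loess (adjusted p = 0.0178). The adjusted p was 0.063 with a trended, robust prior. For each of the 2 genes the call was lost in 7 of 12 fits that left out 1 array and with only the compared arrays in the fit (adjusted p = 0.24).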

How the data were processed

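RNA of small airway epithelial cells was measured on 30 arrays, in 10 groups of 3. The authors deposited log2 values made with RMA, per the submitters' processing notes, and no scanner files were analysed here. Array number limits the precision. Genes were named from the platform annotation: 19064 probe sets had 1 symbol, 1043 several and 2108 none, and 62 control probe sets were left out. The probe set with the highest mean over the arrays stood for each of 11963 genes. Groups were taken from the labels. A linear model with 1 mean per group was fitted to all 30 arrays with limma 3.58.1 in R 4.3.3 (eBayes, two-sided, Benjamini-Hochberg over 11963 genes, threshold 0.05; prior degrees of freedom 3.96, residual 20). Tested on simulated data of 11963 genes, the fit called 41 of 50 genes raised by 0.4, 35 of 50 lowered by 0.4 and 11 of 11763 unchanged genes. The simulated noise was independent between genes and arrays, without a shift that depends on signal or a stray array. These counts therefore do not give the error rate in the real arrays, which show such features.

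The comparison, the 34 gene lists and the naming rule were chosen with earlier results of these data known. The rule named up to 15 genes in each direction with the largest change among called genes whose arrays did not overlap and whose higher group lay above the table's median, up to 5 in each direction in the other comparisons, and up to 4 called members of each list or otherwise the member with the smallest p. Genes stable over settings, CXCL1, CXCL8, CCL20, EGFR and members named as not passed were chosen after their values were seen. Alternatives were other scalings, filters, sample sets, weights, probe set means, a replicate block and leaving out each array. Quantile normalisation was added after the data were seen.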

Additional observations from a re-analysis of the deposited data

Results flagged for a closer look

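In 2 genes the effect of TiO2 nanobelts at 10 µg/ml differed between 24 h and 1 h by a test of the difference itself (limma interaction contrast). For KLF7 the 24 h effect minus the 1 h effect was -0.61 ± 0.10 on the log2 scale (SE, adjusted p = 0.0215). For RAB3IL1 it was 0.46 ± 0.08 (SE, adjusted p = 0.031), with 3 of 3 exposed arrays above all controls at 24 h and 3 of 3 below all controls at 1 h. KLF7 did not pass after cyclic loess (-0.57, adjusted p = 0.0748) or quantile normalisation (-0.54, adjusted p = 0.0648), and RAB3IL1 did not with a trended, robust prior (adjusted p = 0.063). Leaving out 1 array moved the difference between -0.71 and -0.53 for KLF7 and between 0.42 and 0.51 for RAB3IL1, and 7 of 12 such fits lost each call.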

How the results depend on the processing

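The count of genes changed by 10 µg/ml at 24 h (724, with 305 higher and 419 lower) depended strongly on the processing. It was 670 (86 and 584) with dim probe sets filtered out, 177 (112 and 65) after cyclic loess, 168 (111 and 57) after quantile normalisation, 0 with only the compared arrays in the fit (2115 at an unadjusted p under 0.05), 323 (195 and 128) with only the 24 h arrays, 2170 (962 and 1208) with array weights, 734 (262 and 472) with a trended, robust prior and 610 (256 and 354) with probe sets averaged. Leaving out 1 array gave 74 to 956 genes (41 to 260 higher, 18 to 696 lower): 74 without control replicate 1 and, without exposed replicates 1, 2 and 3, 243, 512 and 82. Against MWCNT (584 genes) the counts were 206 after cyclic loess, 224 after quantile normalisation, 7 with the compared arrays, 357 with the 24 h arrays, 1284 with weights, and 20 to 798 with 1 array left out, the 20 without MWCNT replicate 1. Between doses (118 genes) they were 30, 62 and 283 with the compared arrays, the 24 h arrays and weights, and 68 to 135 with 1 array left out. The difference between times (2 genes) gave 15 after the dim filter, 1 after cyclic loess, 1 after quantile normalisation, 0 with the compared arrays (1417 unadjusted), 412 with weights and 0 to 119 with 1 array left out; it was not run on 24 h arrays alone. The replicate numbers share no stated source. The correlations of same-numbered deviations of exposed and control arrays were -0.056, -0.086 and 0.005, which cannot show whether such samples share a donor or culture. With the replicate block 643 (275 and 368), 514, 111 and 2 genes passed. Of 998 values for 68 named genes, 670 kept direction and side of the threshold, 307 lost and 20 gained the call, and 1 reversed, PLCB1, at 0.03 with probe sets averaged. The 670 include values of genes not called on the deposited values, such as MT1G, RPS25 and ICAM1, which again did not pass. They therefore do not measure how many calls were kept. The cause of these shifts was not tested. Signals near the low end of the table limit the squamous, secretory, immune and endothelial lists.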

Other observations

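Kallikreins are secreted serine proteases encoded side by side on chromosome 19. Of the 13 kallikrein genes measured, taken as a group after their values were seen, 4 were called higher in exposed than in control cells at 24 h (KLK7 by 0.46, KLK10 by 0.33, KLK14 by 0.32 and KLK11 by 0.31 on the log2 scale), and none passed after cyclic loess. Over all genes 2.55% were called higher, and in the third of 10 bins by signal 77 of 1196. The group was chosen because members were seen to rise, so its count supports nothing.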
